A study of Mus musculus with 2 samples.

Results

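The stromal cells of mouse islet preparations, fibroblasts and pericytes, were taken as the barcodes with at least 8 UMIs over Col1a1, Col1a2, Col3a1, Dcn, Pdgfra, Pdgfrb and Rgs5, at most 1 UMI of the endothelial genes Pecam1 and Cdh5, and less than 20% of UMIs from Ins1 and Ins2. A UMI (unique molecular identifier) stands for 1 captured RNA molecule. Of 18006 barcodes that passed the filters, 142 met this rule, 39 in the CDS library and 103 in the saline library. The values that chose these cells are their own counts, so their collagen, Dcn, Pdgfr and Rgs5 levels over other cells are a description.

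Islets came from mice labelled DIO that were given 10 mg/kg of an agent labelled CDS or saline for 2 weeks. The pancreas was digested with collagenase delivered through the duct, intact islets were picked by hand under a stereomicroscope, and the dissociated cells were run on a 10x droplet platform. The labels do not give strain, sex, age or the number of animals behind a library, and they do not say whether CDS is the peripherally acting alpha2A-adrenergic receptor antagonist named in the title. Each group had 1 library, so no comparison below has a replicate check, no test was run, and the 95% intervals cover counting error only.

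Fibroblasts build and remodel the collagen and proteoglycan matrix, and in most organs they carry the receptor Pdgfra. Pericytes wrap the capillaries of the islet, carry Pdgfrb and the G-protein regulator Rgs5, and contract or relax to set local blood flow. Stromal cells of lymph nodes and spleen form a separate kind, which places T and B cells by secreting the chemokines Ccl19, Ccl21a and Cxcl13.

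The libraries differed before any stromal cell was picked. The CDS library had 6415 kept barcodes with a median of 19838 UMIs, and the saline library 11591 with a median of 10070. Lymphoid barcodes, those with at least 2 UMIs over Ptprc, Cd79a, Cd3e and Cd3d, made up 4.55% (95% exact binomial interval 4.05 to 5.09) of CDS barcodes and 26.3% (25.5 to 27.1) of saline barcodes. The labels give the cell type of both libraries as islet b cell. Insulin-rich barcodes, with at least 20% of UMIs from Ins1 and Ins2, numbered 3747 in the CDS library and 5201 in the saline library. The libraries shared 19 kept cell barcodes, none of them a stromal cell. A doublet caller marked 3.99% of CDS and 5.30% of saline barcodes, with 1 stromal cell among them in each library.

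Stromal cells were 0.608% (0.433 to 0.830) of kept barcodes in the CDS library and 0.889% (0.726 to 1.08) in the saline library, and these intervals overlap. Each cell was also thinned to 3000 UMIs, with shallower cells left out. The shares were then 0.234% (0.128 to 0.393) of 5975 CDS barcodes and 0.887% (0.701 to 1.11) of 8679 saline barcodes. For the same barcodes unthinned they were 0.552% (0.380 to 0.775) and 1.13% (0.918 to 1.37), and neither pair of intervals overlaps. Intervals also did not overlap with at least 15 rule UMIs, with lymphoid barcodes out of the denominator, or with a stricter filter. That filter asked for 1000 genes, 2000 UMIs and at most 10% mitochondrial UMIs. With the other settings tried they overlapped. The stromal cells had similar depth in both libraries, with a median of 10010 UMIs and 3296 genes in CDS and 9462 UMIs and 3442 genes in saline. Just inside the limit, with 8 to 10 UMIs of the rule genes, stood 10 CDS and 13 saline cells. Just outside it, with 5 to 7 UMIs, stood another 10 CDS and 13 saline barcodes. The limit on Pecam1 and Cdh5 kept out 24 CDS and 37 saline barcodes, and the limit on insulin 3 CDS and 9 saline barcodes.

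The label was checked with markers that the rule does not use. Of 7 fibroblast markers (Lum, Dpt, Pi16, Cd34, Clec3b, Mfap5 and Gsn) all but Pi16 were detected in CDS stromal cells, and all but Pi16 and Cd34 in saline stromal cells. All 7 pericyte markers (Kcnj8, Abcc9, Higd1b, Cspg4, Notch3, Mcam and Ndufa4l2) were detected in both libraries. A UMI of a pericyte marker was present in 79.5% of CDS stromal cells, against 48.0% of endothelial and 9.66% of insulin-rich barcodes of that library, and in 82.5% of saline stromal cells, against 33.1% and 7.56%. A UMI of a fibroblast marker was present in 56.4% of CDS stromal cells, close to the shares in the deeper insulin-rich (54.1%) and in the endothelial (56.0%) barcodes, so in CDS this share does not set the stromal cells apart. The summed fibroblast markers were at 748 CPM in CDS stromal cells against 138 CPM in endothelial and 32.1 CPM in insulin-rich barcodes, and at 709 CPM in saline stromal cells against 138 and 34.9 CPM. Some cells that met the rule carried RNA of other classes in quantity. With at least 10 ductal marker UMIs, at least 100 acinar marker UMIs, over 100 UMIs of Gcg, Sst or Ppy, or at least 10% insulin UMIs, these were 5 of 39 CDS and 6 of 103 saline cells. The 5 CDS cells held 13781 to 31115 UMIs each, against a median of 10010 over the CDS stromal cells. The 6 saline cells held 11632 to 20289 UMIs each, against a median of 9462. They therefore weigh more in the summed counts than their number. Insulin RNA was present in all stromal cells, at a median of 1.64% of UMIs in CDS and 1.56% in saline.

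Compared with all other kept barcodes of the same library, the 12 genes that set the stromal cells apart most in both libraries, the rule genes aside, were Mfap5 (a microfibril protein), Col5a3, Col6a1, Col6a2 and Col5a2 (collagen chains), Tnc (tenascin C), Ccl21a, Il11 (a cytokine of the IL-6 family), Bgn (the proteoglycan biglycan), Rspo3 (an enhancer of Wnt signalling), Csmd1 (a membrane regulator of complement) and Ccl11 (an eosinophil chemokine). Mfap5 was at 310 CPM (UMIs scaled to a common library total) in CDS stromal cells against 0.100 CPM in the rest of that library, and at 439 CPM in saline stromal cells against 0.514 CPM in the rest. Bgn was at 329 CPM against 0.557 CPM in the CDS library and at 652 CPM against 1.51 CPM in the saline library. These genes were not spread evenly: Mfap5 UMIs were found in 11 of 39 CDS and 18 of 103 saline cells, and Bgn UMIs in 22 CDS and 77 saline cells. A single CDS cell held 59.3% of the Il11 UMIs of that library, and Ccl21a UMIs came from 4 CDS cells and 49 saline cells.

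The share of stromal cells with a Pdgfra UMI was lower in the CDS library, with intervals that did not overlap. The intervals for Rgs5 overlapped. Pdgfra (mm10 chr5:75152292-75198215, plus strand), the receptor that marks fibroblasts, had a UMI in 9 of 39 CDS cells, 23.1% (11.1 to 39.3), and in 54 of 103 saline cells, 52.4% (42.4 to 62.4). Rgs5 (chr1:169655501-169695813, plus strand) had a UMI in 25 CDS cells, 64.1% (47.2 to 78.8), and in 46 saline cells, 44.7% (34.9 to 54.8). In cells that should lack Pdgfra, the insulin-rich barcodes, 0.0801% of CDS and 0.173% of saline barcodes had a Pdgfra UMI, at median depths of 28339 and 16112 UMIs. Rgs5 was found in 1.23% of CDS and 0.846% of saline insulin-rich barcodes. Among endothelial barcodes, which had at least 3 UMIs of Pecam1 and Cdh5 and fewer than 8 of the rule genes, Rgs5 was found in 17.7% of 248 in CDS and 13.6% of 450 in saline, at median depths of 7979.5 and 4906.5 UMIs. No Pdgfra UMI was found in either, which at these depths allows up to 1.48% of barcodes with a UMI in CDS and 0.816% in saline (upper 95% limits), and Pdgfra is among the genes that limited the choice of these barcodes.

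**Figure D1:**
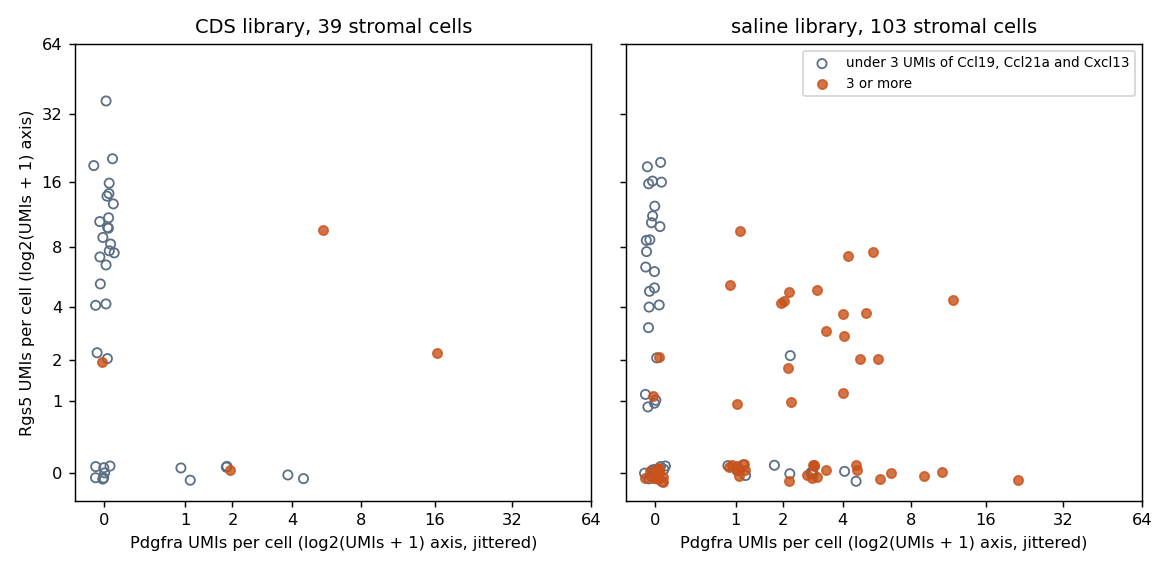
UMIs of Pdgfra (x axis) and of Rgs5 (y axis) in each stromal cell, both on a log2(UMIs + 1) axis with small jitter, CDS library on the left and saline library on the right. Filled points have 3 or more UMIs of Ccl19, Ccl21a and Cxcl13 together; the 20 saline cells with both genes are nearly all filled, while only 2 CDS cells have both.

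Cells with Pdgfra and no Rgs5 (Pdgfra-only) numbered 7 in CDS and 34 in saline, and cells with Rgs5 and no Pdgfra (Rgs5-only) 23 in CDS and 26 in saline. Both genes were found in 2 CDS and 20 saline cells, and neither in 7 CDS and 23 saline cells. Pdgfra-only cells were deeper than Rgs5-only cells in both libraries, with a median of 16585 against 6024 UMIs in CDS and 13407 against 4550.5 UMIs in saline, and the part of depth in the division was not tested. After thinning to 3000 UMIs, Pdgfra was found in 14.3% (1.78 to 42.8) of 14 CDS and 40.3% (29.2 to 52.1) of 77 saline cells. For the same barcodes unthinned it was 27.3% (13.3 to 45.5) and 55.1% (44.7 to 65.2). Both pairs of intervals overlap, as do those with 15 rule UMIs and with 2 UMIs for a positive call. Rgs5 was found in 57.1% of CDS and 36.4% of saline thinned cells, against 63.6% and 44.9%. With 2 UMIs for a positive call the Rgs5 intervals did not overlap, at 47.2 to 78.8 in CDS and 27.6 to 47.0 in saline.

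Markers outside the rule followed this division. The summed level of the 7 pericyte markers had a median per cell of 97.6 CPM in Pdgfra-only against 1500 CPM in Rgs5-only cells of the CDS library, and of 267 CPM against 702 CPM in the saline library. The fibroblast markers had a median of 1093 CPM in Pdgfra-only against 0 CPM in Rgs5-only cells in CDS, and of 188 CPM against 0 CPM in saline. Within the Pdgfra-only cells, 4 of 7 CDS and 8 of 34 saline cells had at least 20 fibroblast marker UMIs. The 7 CDS cells with neither gene had the highest median of fibroblast markers, 1974 CPM, against 121 CPM in the 23 saline cells with neither.

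**Figure D2:**
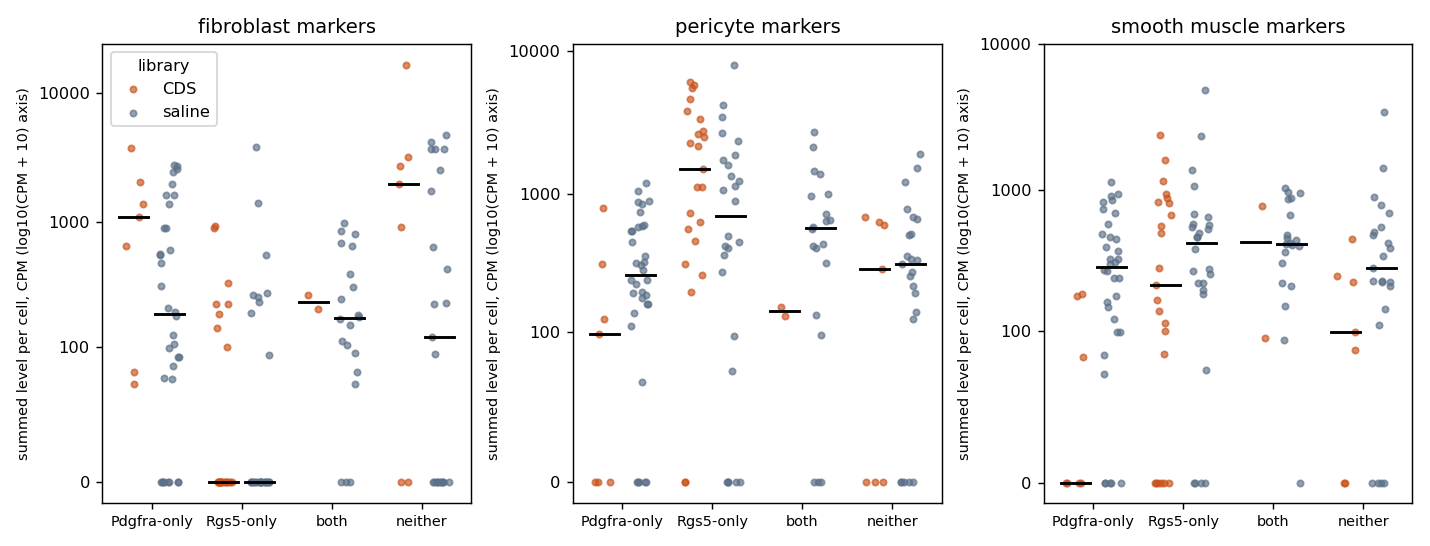
Summed level of the fibroblast, pericyte and smooth muscle markers per cell, in CPM on a log10(CPM + 10) axis, by Pdgfra and Rgs5 status, with CDS cells left of saline cells; each point is 1 cell and the black line is the median. Pericyte markers are highest in Rgs5-only cells of both libraries, with medians of 1500 and 702 CPM.

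Side by side, Pdgfra-only cells carried matrix and immune-signal genes and Rgs5-only cells carried vasoactive and pericyte genes. Of 3027 genes with 20 or more UMIs over both subgroups in each library, 108 (3.57%) were at least 2-fold higher and 116 (3.83%) at least 2-fold lower in Pdgfra-only than in Rgs5-only cells in both libraries, with intervals that excluded 1. With plain CPM in place of TMM-scaled CPM the split was 88 higher and 153 lower. Of the 108 and 116 genes, 56 and 86 were called again with 2 UMIs for a positive call. Without cells rich in RNA of another class it was 62 and 82. Without cells with 3 or more UMIs of Ccl19, Ccl21a and Cxcl13 it was 66 and 97. The division uses 2 genes of the same cells, so these counts are a description.

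Among genes higher in Pdgfra-only cells were Clmp (a cell adhesion protein), Lox (which cross-links collagen), Csgalnact1 (which starts chondroitin sulfate chains), Fbln2 (fibulin 2), Vcan (versican), Smoc2 (a matricellular protein), Igfbp4 (an IGF-binding protein), Serpinf1 (the anti-angiogenic factor PEDF), Pdpn (podoplanin) and C3 (the central complement component). Clmp had 368 CPM in Pdgfra-only against 4.96 CPM in Rgs5-only cells of the CDS library, and 252 against 12.1 CPM in the saline library, so all 7 CDS and 25 of 34 saline Pdgfra-only cells held a UMI against 1 and 2 Rgs5-only cells. The ratio was 74.1 (12.6 to 2992) in CDS and 20.8 (5.63 to 174) in saline. Vcan was 12.1 times (5.13 to 34.7) and 11.8 times (5.66 to 29.8) as high, and C3 11.1 times (5.26 to 27.1) and 9.65 times (4.81 to 22.6). Fbln2 was 17.5 times (7.03 to 56.0) as high in CDS and at least 13.5 times as high in saline, where Rgs5-only cells held 0 UMIs and the bound is set by 3 UMIs over the subgroup. Il33, an alarm cytokine of fibroblasts and endothelium, also met the rule, but all 34 of its Pdgfra-only UMIs in CDS came from 1 cell, against 24 cells in saline.

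Among genes lower in Pdgfra-only cells, the endothelin receptor Ednrb had 8.18 CPM in Pdgfra-only against 819 CPM in Rgs5-only cells in CDS, and 4.35 against 957 CPM in saline. It was found in 17 of 23 CDS and 18 of 26 saline Rgs5-only cells, and in 1 Pdgfra-only cell of each library. Igfbp5, a secreted IGF-binding protein, had 40.9 against 4984 CPM in CDS and 69.6 against 4820 CPM in saline. Timp3 (an inhibitor of metalloproteinases), Slc12a2 (the sodium-potassium-chloride cotransporter), Pde3a (a cyclic nucleotide phosphodiesterase of contractile cells), Ptp4a3 (a phosphatase) and Peli2 (a ubiquitin ligase) were lower too. For Pde3a the ratio was at most 0.0696 in CDS, where Pdgfra-only cells held 0 UMIs, and 0.0845 (0.0491 to 0.139) in saline.

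The remaining names on this side, Krt18 and Krt8 (keratins of simple epithelium), Anxa3 (an annexin) and Cystm1, stood beside a few cells rich in ductal RNA. A single cell held 72.4% of the 355 Krt18 UMIs in CDS Rgs5-only cells and another 82.4% of the 159 in saline. In CDS, 2 Rgs5-only cells had 64 and 101 UMIs of the ductal markers and 0 of the pericyte markers, and 1 saline Rgs5-only cell had 38 and 0. Without the cells rich in RNA of another class, these among them, 82 of the 116 genes lower in Pdgfra-only cells were called again. Of the 116, 1 was then called higher. The keratin ratios without these cells are not given here.

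**Figure D3:**
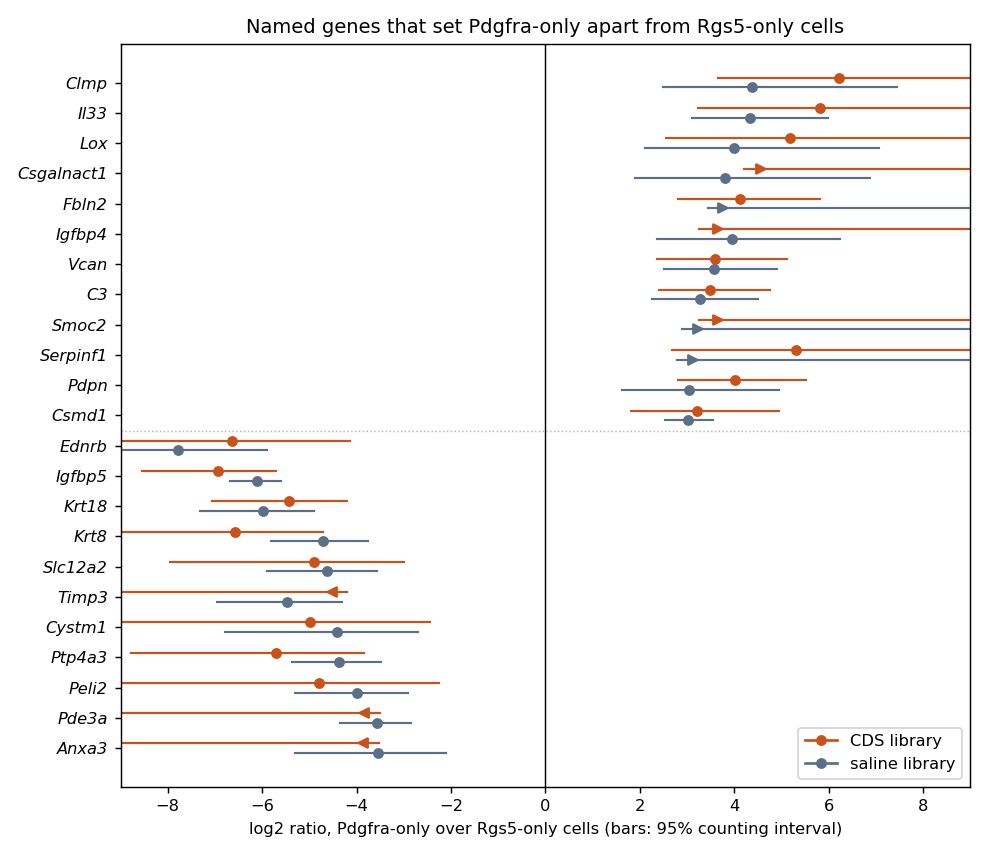
Log2 ratio of Pdgfra-only over Rgs5-only cells for 23 genes taken by the naming rule, in the CDS library and the saline library, with bars for the 95% counting interval, clipped at the edge of the axis, and arrows for bounds where a subgroup held 0 UMIs. By the naming rule each gene lies on the same side of 0 in both libraries.

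By list, 8 of 12 measured genes for fibrillar collagens and their processing were higher in Pdgfra-only cells in both libraries and 0 lower: Col3a1, Col5a2, Col5a3, Col6a1, Col6a2, Col6a3, Lox and Serpinh1 (the collagen chaperone). Of 14 measured pericyte genes, 0 were higher and 10 lower, among them Kcnj8 (an ATP-sensitive potassium channel), Notch3 (the Notch receptor of mural cells), Ednra, Gucy1b1 (a subunit of the nitric oxide receptor) and Rgs4. Of 9 vasoactive receptors and channels, 0 were higher and 5 lower. Of 16 chemokines and cytokines, 5 were higher (Ccl2, Ccl7, Il11, Il33 and Csf1) and Il34 was lower. Col3a1, Rgs5 and Pdgfra are rule genes, and their place here follows from the choice of cells. Basement membrane genes gave 0 higher and 0 lower of 5.

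A large share of the saline stromal cells carried the lymphoid-tissue chemokines, a split made after the values were seen. At least 3 UMIs of Ccl19, Ccl21a (chr4:42772860-42773993, minus strand) and Cxcl13 (chr5:95956951-95961068, plus strand) together were found in 4 of 39 CDS cells, 10.3% (2.87 to 24.2), and in 55 of 103 saline cells, 53.4% (43.3 to 63.3). The amount per such cell was high in both, with a median of 27.5 UMIs (7 to 34) in CDS and 35 UMIs (3 to 190) in saline. No cell had exactly 2 such UMIs, and the remaining 35 CDS and 48 saline cells had 0 or 1. Among insulin-rich barcodes, 22 (0.587%) in CDS and 142 (2.73%) in saline had any such UMI, and 0 and 9 had at least 3. Among endothelial barcodes, 0 in CDS and 3 in saline had at least 3. Ccl21a has near-identical copies in the mouse genome, so its reads may belong to any of them.

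In the saline library these chemokine-bearing cells made up 23 of 34 Pdgfra-only, 19 of 20 double-positive and 11 of 23 double-negative cells, but 2 of 26 Rgs5-only cells. In the CDS library they were 1 of 7 Pdgfra-only, both double-positive, 0 of 7 double-negative and 1 of 23 Rgs5-only cells. UMIs of the lymphoid markers Cd79a, Ms4a1, Cd3e, Cd3d and Ptprc in the chemokine-bearing cells came to 0 in CDS and to 31, in 8 of 55 cells, in saline. Most of these cells thus held no UMI of these markers. The cells that lacked the chemokines held 1 such UMI in CDS and 9, in 6 cells, in saline.

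Without the chemokine-bearing cells the shares of the libraries lay closer together. Stromal cells were then 0.546% (0.380 to 0.758) of kept barcodes in CDS and 0.414% (0.305 to 0.549) in saline, so the order of the libraries turned. Pdgfra was found in 6 of 35 CDS cells (17.1%, 6.56 to 33.7) and 12 of 48 saline cells (25%, 13.6 to 39.6). Rgs5 was found in 62.9% (44.9 to 78.5) and 52.1% (37.2 to 66.7). The intervals overlap for all 3 shares. With all cells they also overlapped for the stromal and Rgs5 shares, but not for Pdgfra. The number of chemokine-bearing cells moved with the lymphoid share of the library, 4.55% in CDS and 26.3% in saline, and the part of lymphoid tissue in these shares was not tested. With 1 library a group, treatment, animal and the tissue picked with the islets cannot be told apart.

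Within the saline library, the chemokine-bearing cells differed from the others in many genes that did not define them. Of 7409 measured genes, 1004 (13.6%) were higher in cells with the chemokines than in cells without them and 804 (10.9%) lower, counting a ratio past 1.5-fold with an interval that excluded 1. Interferon and antigen presentation genes (25, the targets of interferon signalling and MHC class I) had 24 higher and 1 lower, with a median log2 ratio of 2.28. Complement genes had 8 of 10 higher and 1 lower. The saline cells without the chemokines instead held all 471 Mfap5 UMIs of that library, 3006 of its 3125 UMIs of Timp1, an inhibitor of metalloproteinases, and 140 of its 146 Lox UMIs. Proteoglycan and elastic fibre genes had 4 of 19 higher and 12 lower in cells with the chemokines, and pericyte genes 4 of 21 higher and 11 lower.

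Interferon-regulated RNA per cell showed the same division. The summed level of the 25 interferon and MHC class I genes had a median of 2054 CPM (0 to 11175) in the 39 CDS stromal cells and of 11295 CPM (862 to 33678) in the 103 saline cells. In cells with the lymphoid chemokines the median was 3029 CPM (1806 to 4263) in the 4 CDS cells and 15605 CPM (4536 to 30140) in the 55 saline cells, ranges that do not overlap. In cells without them it was 2032 CPM (0 to 11175) in CDS and 2818 CPM (862 to 33678) in saline, and these ranges overlap widely. Rgs5-only cells had medians of 1826 CPM in CDS and 2964 CPM in saline. Endothelial barcodes had 3875 CPM in CDS and 3670 CPM in saline, and insulin-rich barcodes 841 and 782 CPM.

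**Figure D4:**
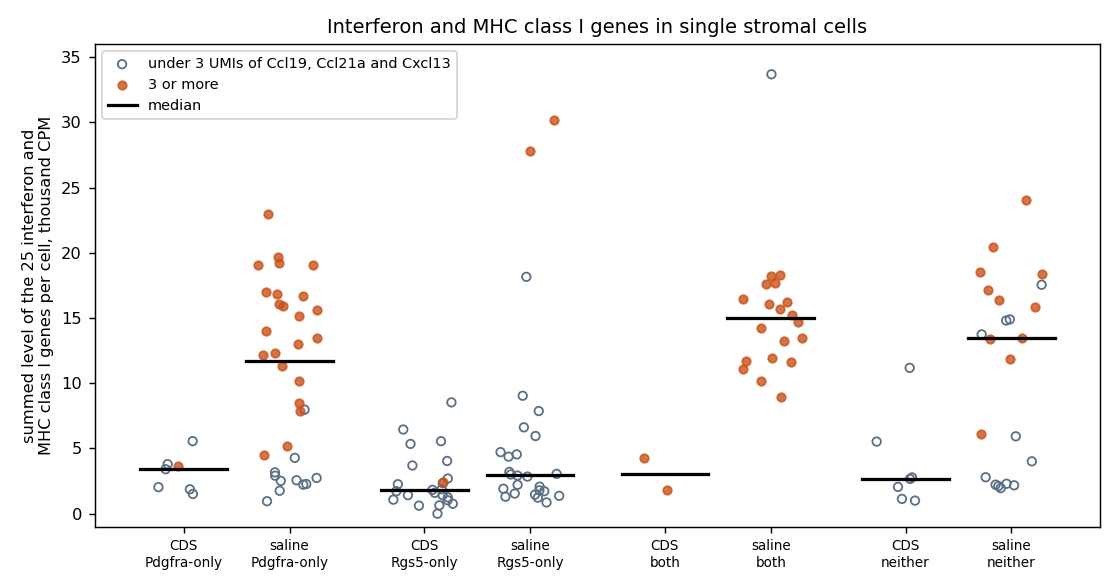
Summed level of 25 interferon and MHC class I genes in each stromal cell, in CPM (axis in units of 1000 CPM), by Pdgfra and Rgs5 status, with CDS cells left of saline cells in each pair; black lines are medians and filled points carry 3 or more UMIs of Ccl19, Ccl21a and Cxcl13. Saline Pdgfra-only, double-positive and double-negative cells have medians of 11725, 14983 and 13466 CPM, and every CDS cell lies at or below 11175 CPM.

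Summed over all stromal cells, CDS over saline, 780 of 8372 measured genes (9.32%) were higher and 1144 (13.7%) lower past 1.5-fold with an interval that excluded 1, a limit of size and not a test. A gene counted as measured from 20 UMIs in the sum of the libraries, and the median log2 ratio over all measured genes was -0.05. Iigp1, an interferon-induced GTPase that attacks vacuoles of intracellular microbes, had 4.74 CPM in CDS against 525 CPM in saline, from 2 and 573 UMIs, a ratio of 0.00902 (0.00109 to 0.0327). It was found in 2 CDS cells and 59 saline cells.

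Cxcl9 and Cxcl10, interferon-induced chemokines that draw T cells, had 0 UMIs in CDS stromal cells against 659 and 506 UMIs in saline. With 0 counts the ratios are bounds set by 3 UMIs over the CDS stromal sum, at most 0.0118 for Cxcl9 and at most 0.0153 for Cxcl10. Ifit3, an interferon-induced antiviral gene, had 0 against 479 UMIs, a ratio of at most 0.0162. Zbp1 (a sensor of viral nucleic acid) and Gbp3 (a guanylate-binding protein) had 2.37 CPM each in CDS, against 171 and 109 CPM in saline. Csf3, the granulocyte growth factor, had 4.74 CPM in CDS against 193 CPM in saline, and Cemip, which breaks down hyaluronan, 4.74 against 237 CPM. Ly6k had 2.37 against 89.0 CPM. All 7 Cxcl13 UMIs of CDS stromal cells came from 1 cell, against 1053 UMIs from 35 saline cells.

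Of 25 interferon and MHC class I genes, 0 were higher and 24 lower in CDS, with a median log2 ratio of -2.32. B2m, the shared subunit of MHC class I, had a ratio of 0.400 (0.327 to 0.486) and H2-K1, a classical class I heavy chain, 0.301 (0.245 to 0.367). Irf7, which amplifies the interferon response, had 0 UMIs in CDS and 260 in saline. Ifi27 was the member that was not lower, at 1.11 (0.871 to 1.41).

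When the chemokine-bearing cells were left out of both libraries, the list was nearer to the other genes but still lower. Fewer of its genes were measured then, so the medians with and without those cells cover different genes. Of 16 interferon genes still measured, 0 were higher and 8 lower, with a median log2 ratio of -1.07, against 8.01% of all 6244 measured genes higher and 10.9% lower. B2m was then at 1.0 (0.767 to 1.31), H2-D1, another class I heavy chain, at 1.06 (0.793 to 1.4) and H2-K1 at 0.791 (0.603 to 1.03). Cxcl10 kept 0 against 71 UMIs, a ratio of at most 0.0568, and Ifit3 0 against 52, at most 0.0776. B2m, H2-D1 and H2-K1 were thus each within 1.5-fold between the libraries outside the chemokine-bearing cells, while Cxcl10 and Ifit3 were still lower in CDS, at low counts.

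Other immune signals had the same form. Of 23 chemokines and cytokines, 2 were higher (Cxcl14 and Csf1) and 16 lower in CDS, with a median log2 ratio of -1.25. Of 17 measured without the chemokine-bearing cells, 4 were higher and 5 lower, with a median of -0.19. The list holds Ccl19, Ccl21a and Cxcl13, which chose the cells left out, so part of this change is fixed by the choice. Ccl2, a monocyte chemokine, had 1311 CPM in CDS against 2639 CPM in saline, a ratio of 0.497 (0.453 to 0.544), and was at 0.876 (0.780 to 0.982) without those cells. Cxcl5, a neutrophil chemokine, was at 0.260 (0.223 to 0.303), and at 0.488 (0.379 to 0.624) without them. Csf1, a macrophage growth factor, was at 2.08 (1.65 to 2.61) and 2.02 (1.51 to 2.70). Of 10 complement genes, 1 (Clu) was higher and 6 were lower, with a median of -1.64, and without the chemokine-bearing cells 1 of 6 was higher and 0 lower. Clu, the chaperone clusterin, was at 1.52 (1.36 to 1.70), with 51.5% of its CDS UMIs in 1 cell, and without the cells rich in RNA of another class it was lower, at 0.141 (0.0898 to 0.213), so that 0 of 10 were higher and 7 lower. C4b had 26.1 against 152 CPM and Cfb 19.0 against 131 CPM.

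**Figure D5:**
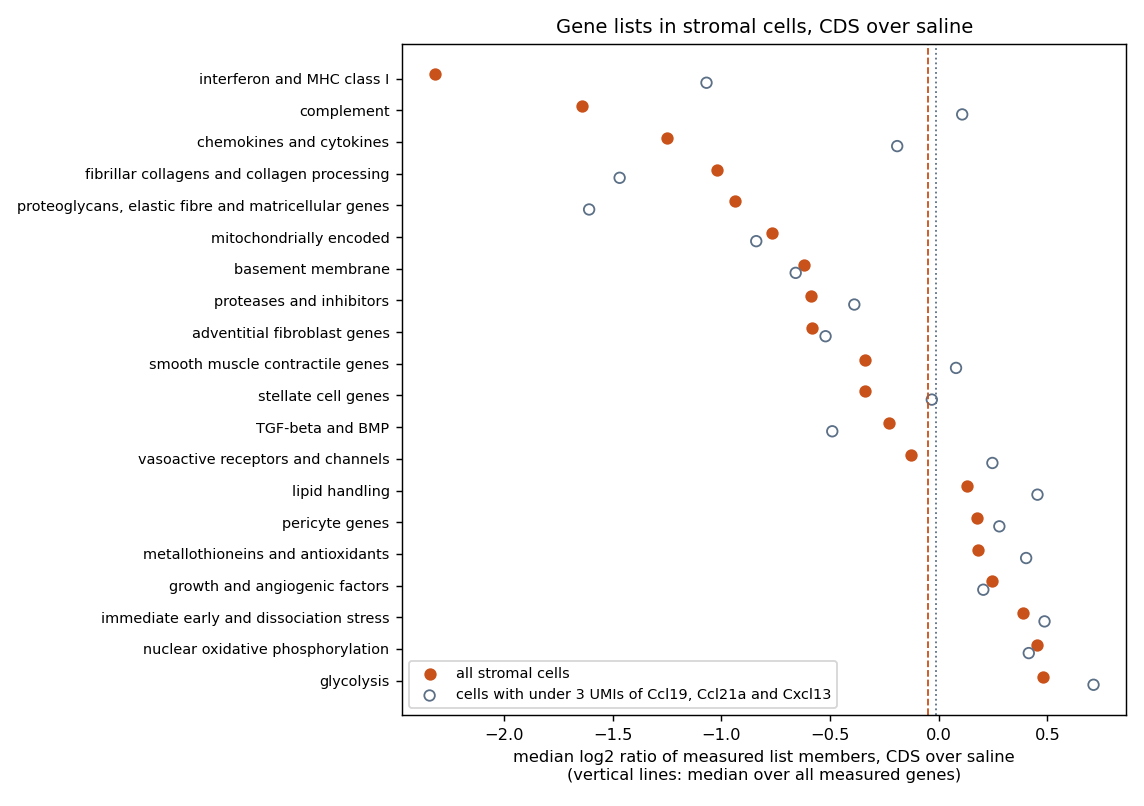
Median log2 ratio, CDS over saline, of the measured members of each gene list in all stromal cells (filled) and in cells with under 3 UMIs of Ccl19, Ccl21a and Cxcl13 (open); vertical lines give the medians over all measured genes. The interferon list moves from -2.32 to -1.07 and the fibrillar collagen list from -1.02 to -1.47 when the chemokine-bearing cells are left out.

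Collagen genes were lower in CDS with or without the chemokine-bearing cells. Of 22 genes for fibrillar collagens and their processing, 0 were higher and 16 lower, with a median log2 ratio of -1.02, and 0 of 21 were higher and 16 lower without those cells, with a median of -1.47. Col3a1, the collagen of soft, distensible tissue, had 303 CPM in CDS against 1141 CPM in saline, a ratio of 0.266 (0.220 to 0.319), and 0.101 (0.0718 to 0.138) without those cells. A single CDS cell held 46.9% of its Col3a1 UMIs, and a single CDS cell held 74.0% of the 100 Col1a1 UMIs, and both are rule genes. Of genes the rule does not use, Col5a2 was at 0.489 (0.403 to 0.591), Loxl2 (a collagen cross-linker) at 0.258 (0.150 to 0.420) and Sparc (which binds collagen outside the cell) at 0.539 (0.490 to 0.591).

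The libraries also differed in their mix of cells, with 7 of 39 CDS and 34 of 103 saline cells Pdgfra-only. The summed level of the 19 collagen and processing genes outside the rule had a median per cell of 3479 CPM (724 to 5881) in the 7 CDS Pdgfra-only cells and of 6255 CPM (1936 to 13600) in the 34 saline ones, ranges that overlap. In Rgs5-only cells it was 2011 CPM (48.0 to 5835) in CDS and 2337 CPM (172 to 8758) in saline. Within Pdgfra-only cells, 0 of 22 list genes were higher and 10 lower in CDS, and within Rgs5-only cells 0 of 10 were higher and 6 lower. Over all genes, 10.1% were higher and 14.7% lower within Pdgfra-only cells, and 9.49% and 8.22% within Rgs5-only cells. Col3a1 was at 0.0865 in Pdgfra-only cells, from 15 and 652 UMIs, and at 0.169 in Rgs5-only cells, from 7 and 34 UMIs.

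Over all measured genes in stromal cells, 9.32% were higher and 13.7% lower in CDS. Of 19 proteoglycan, elastic fibre and matricellular genes, 2 were higher in CDS (Thbs1 and Mgp) and 10 lower, with a median log2 ratio of -0.94. Without the chemokine-bearing cells 1 of 18 was higher (Mgp) and 13 lower, with a median of -1.61, and Thbs1 turned to 0.761 (0.608 to 0.948). Fn1 (fibronectin) was at 0.25 (0.157 to 0.381), Emilin1 (an elastic fibre glycoprotein) at 0.200 (0.0938 to 0.380) and Ccn2 (connective tissue growth factor) at 0.280 (0.159 to 0.463). A single saline cell held 55.4% of the Ccn2 UMIs, and without the chemokine-bearing cells Fn1 had 0 UMIs in CDS against 125 in saline. Of 12 basement membrane genes, 0 were higher and 5 lower, among them Col15a1 at 0.134 (0.0357 to 0.358) and the laminin chain Lamc1 at 0.403 (0.277 to 0.572). Adventitial fibroblast genes had 2 of 14 higher (Gsn and Igfbp5) and 6 lower. Of these, Igfbp5 was far lower in Pdgfra-only than in Rgs5-only cells of both libraries, so here it does not mark fibroblasts. Ly6a, a surface marker of progenitor-like fibroblasts that interferon also induces, had 99.5 CPM in CDS against 987 CPM in saline, a ratio of 0.101 (0.0723 to 0.137), with 61.9% of its CDS UMIs in 1 cell. Outside the chemokine-bearing cells Ly6a had 42 UMIs in CDS and 44 in saline, a ratio of 1.28 (0.821 to 2.01). Timp1 had 602 CPM in CDS against 2866 CPM in saline, 0.210 (0.184 to 0.239), with 55.5% of its CDS UMIs in 1 cell.

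Pericyte genes leaned the other way in the summed counts. Of 22 measured, 8 were higher in CDS and 4 lower, with a median log2 ratio of 0.17. Over all measured genes 9.32% were higher and 13.7% lower. Higd1b, a pericyte marker of the hypoxia-induced family, had 137 CPM in CDS against 6.42 CPM in saline, from 58 UMIs in 9 cells and 7 UMIs in 4 cells, a ratio of 21.4 (9.76 to 55.6). Ndufa4l2, a mitochondrial protein induced by low oxygen, was at 3.37 (2.58 to 4.41), and Cox4i2, an isoform of cytochrome oxidase subunit 4 in mural cells, at 2.91 (1.62 to 5.26). Ednrb was at 2.54 (2.04 to 3.16) and Ednra at 1.58 (1.17 to 2.12), while Abcc9, the regulatory subunit paired with Kcnj8, was at 0.594 (0.441 to 0.789).

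Rgs5-only cells were 23 of 39 stromal cells in CDS and 26 of 103 in saline, and the list's median was nearer 0 within them. Within Rgs5-only cells, 3 of 17 pericyte genes were higher (Rgs4, Higd1b and Ndufa4l2) and 2 lower (Ebf1 and Gucy1a1), with a median of -0.06, against 9.49% of all genes higher and 8.22% lower. Ednrb was then at 0.856, from 165 and 158 UMIs, and Ednra at 0.683, from 70 and 84. Higd1b stayed higher, at 6.79, with all of its UMIs in Rgs5-only cells, and Ndufa4l2 was at 2.06, from 103 and 41 UMIs. Pdgfrb, the receptor that recruits pericytes to vessels, was at 1.02 (0.819 to 1.26) over all stromal cells and 1.07 in Rgs5-only cells. Abcc9 and Ednra turned to 1.23 and 0.923 when the chemokine-bearing cells were left out. The Rgs5-only sums hold 3 CDS and 2 saline cells rich in RNA of another class. These had 20817 to 30192 and 11632 to 20104 UMIs, against Rgs5-only medians of 6024 and 4550.5. Without these cells, 276 genes were higher and 173 lower in Rgs5-only cells, against 342 and 296 with them. Of those 342 and 296 genes, 201 and 145 were called again. The Rgs5-only ratios of single pericyte genes without these cells are not given here. Over all stromal cells without such cells, 9 of 22 pericyte genes were higher and 1 lower, with a median log2 ratio of 0.46.

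Of 13 contractile genes, 1 was higher in CDS and 4 were lower, against 9.32% and 13.7% of all genes. Without the chemokine-bearing cells 3 of 11 were higher and 3 lower, and without the cells rich in RNA of another class 1 of 13 was higher and 1 lower. Smtn (smoothelin) was the higher one, at 2.36 (1.65 to 3.37), and Tagln (transgelin) was lower, at 0.517 (0.293 to 0.864), with 77.8% of its CDS UMIs in 1 cell. Mylk, the kinase that starts smooth muscle contraction, was at 0.618 (0.369 to 0.993), and at 1.55 (0.689 to 3.54) without the chemokine-bearing cells. Within Rgs5-only cells, 2 of 13 vasoactive receptors and channels were higher (Ptgir, the prostacyclin receptor, and S1pr3) and 4 lower (Agtr1a, Cacna1c, Gucy1a1 and Prkg1). Of all 3602 genes measured in those cells, 9.49% were higher and 8.22% lower. None of the 9 adrenergic receptor genes reached 20 UMIs. Adra2a, the receptor named in the title, had 1 UMI in CDS and 2 in saline stromal cells, and Adra1a the same, so their level in stromal cells was not measurable at this depth.

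Growth factor genes were divided as well. Vegfc (a lymphatic growth factor) was at 0.156 (0.0733 to 0.294) with 60.0% of its CDS UMIs in 1 cell, Fgf7 (an epithelial growth factor of fibroblasts) at 0.160 (0.0629 to 0.341) and Grem1 (a BMP antagonist) at 0.187 (0.126 to 0.267). In CDS the Grem1 UMIs came from 4 cells, and outside the chemokine-bearing cells there were 0 in CDS and 9 in saline. Igfbp3 was at 2.91 (1.93 to 4.41), but 75.5% of its CDS UMIs came from 1 cell, and without the top cell of each library it was at 0.840. Of 26 TGF-beta and BMP genes, 2 were higher and 7 lower, against 9.32% and 13.7% of all measured genes. Tgfbr2, the type II TGF-beta receptor, was at 0.210 (0.0983 to 0.400), and at 0.245 (0.0994 to 0.525) outside the chemokine-bearing cells.

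The genes highest in CDS by the naming rule were Spryd7, Hsd11b1 (which regenerates active glucocorticoid), Fabp4 (a fatty acid-binding protein), Dancr and Snhg1 (long non-coding RNAs), Fstl3 (an activin-binding protein), Ptp4a3, Maff (a small Maf transcription factor), Ndufaf4 (an assembly factor of respiratory complex I) and Mt2 (a metal-binding metallothionein), with ratios between 3.69 and 4.74. Hsd11b1 had 242 CPM in CDS against 55.9 CPM in saline, a ratio of 4.32 (3.12 to 6.04), found in 21 CDS and 19 saline cells, and it was at 2.45 (1.74 to 3.46) without the chemokine-bearing cells. Mt2 had 1811 CPM in CDS against 484 CPM in saline, at 3.74 (3.34 to 4.19) over all cells, 6.16 in Pdgfra-only cells and 0.992 in Rgs5-only cells. Ndufaf4 was at 3.79 (2.53 to 5.72), with UMIs in 24 CDS and 29 saline cells. Plin2, which coats lipid droplets, was at 2.68 (2.15 to 3.33), and at 3.22 (2.39 to 4.4) without the chemokine-bearing cells. Hmox1 (heme oxygenase) was at 7.55 (5.64 to 10.2), Apod (a lipid carrier) at 6.6 (3.76 to 12.1) and Mt3 at least 38.8, but single CDS cells held 77.7%, 67.4% and 86.7% of their UMIs.

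Energy genes differed between the libraries in stromal cells, where 9.32% of all measured genes were higher and 13.7% lower, and in other cells. Of 54 nuclear oxidative phosphorylation genes, 12 were higher in CDS and 0 lower, with a median log2 ratio of 0.45, and of 13 mitochondrially encoded genes 0 were higher and 10 lower, with a median of -0.77. In endothelial barcodes the nuclear genes had 25 of 54 higher and 0 lower and the mitochondrial ones 0 of 13 higher and 10 lower, where 9.15% of 11744 genes were higher and 14.3% lower. In insulin-rich barcodes they had 50 of 54 higher and 0 lower, and 0 of 13 higher and 5 lower, where 14.7% of 17702 genes were higher and 10.8% lower. Ldha, which makes lactate, was at 2.09 (1.85 to 2.36) in stromal cells, 2.02 in endothelial and 2.14 in insulin-rich barcodes.

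Gene length moved with these ratios in each cell class. The median log2 ratio over stromal genes was 0.20 in the fifth of genes with the shortest span (median 4.90 kb) and -0.34 in the fifth with the longest (152 kb). It was 0.31 and -0.34 in endothelial and 0.45 and -0.34 in insulin-rich barcodes. The part of gene length in the list medians was not tested. The interferon list was at -2.32 in stromal cells, -0.75 in endothelial barcodes (2 of 25 higher and 15 lower) and -0.01 in insulin-rich barcodes (7 higher and 6 lower), and the differences between classes were not tested.

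Within Pdgfra-only cells, 7 in CDS and 34 in saline, 538 of 5301 genes (10.1%) were higher and 777 (14.7%) lower in CDS, and the median over all of them was -0.20. Interferon genes there had 0 of 23 higher and 17 lower, and chemokines and cytokines 2 of 21 higher and 12 lower. Without the chemokine-bearing cells, 6 in CDS and 11 in saline, 13.7% of 2805 genes were higher and 16.3% lower, and the interferon list had 1 of 6 higher and 0 lower, the chemokines and cytokines 8 of 12 higher and 2 lower and the collagen list 0 of 20 higher and 15 lower. Within Rgs5-only cells, 23 and 26, 342 of 3602 genes were higher and 296 lower, and 253 higher and 360 lower with plain CPM. Interferon genes there had 0 of 11 higher and 7 lower, with a median log2 ratio of -0.94, and among Rgs5-only cells without the lymphoid chemokines, 22 in CDS and 24 in saline, 0 of 7 higher and 2 lower, with a median of -0.46. The collagen list in those cells had 0 of 7 higher and 3 lower, where 9.47% of all genes were higher and 7.33% lower. Without the cells rich in RNA of another class, 9.10% of stromal genes were higher and 13.6% lower in CDS, and the pericyte genes had 9 of 22 higher and 1 lower.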

How the data were processed

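Single-cell RNA was measured in 2 droplet libraries, 1 CDS and 1 saline. The authors deposited raw UMI counts per gene and barcode with no normalization; the file headers and the submitters' processing notes name Cell Ranger 7.1, and the notes also name Seurat 4, edgeR and build mm10. Whether intron reads or strand were used in counting is not given in the sources used here, so overlapping and antisense genes cannot be told apart. The protocol names 2 chemistry versions.

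Barcodes with at least 500 genes, 1000 UMIs and at most 20% mitochondrial UMIs were kept. Doublets were called with Scrublet in Scanpy 1.11.5 and kept. UMIs were summed per library and cell set and scaled to CPM with TMM factors (edgeR 4.0.16; DESeq2 1.42.0 size factors as an alternative). Ratios carry exact conditional Poisson 95% intervals and shares exact Clopper-Pearson ones; a gene at 0 is bounded with a floor of 3 UMIs over the sum. PCR duplicates are removed by the UMIs, but cells are not replicates. Levels in CPM over the rest of a library are unscaled. Gene spans and positions were read from GENCODE M21, matched for 32235 of 32285 gene IDs. The calculation was checked on simulated data (Python 3.11.15, NumPy 2.4.6, SciPy 1.17.1, pandas 2.3.3, R 4.3.3).

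Members and gene lists were chosen with earlier results of these data known. Named genes followed a rule. They are the 12 genes furthest above the rest in both libraries, at 100 CPM or more; the 12 highest and 12 lowest between subgroups in both libraries, at 100 CPM or more; the 10 highest and 10 lowest CDS over saline, at 50 CPM, 30 UMIs and 5 cells or more, with no cell above 25% of the UMIs and a level at least 2 times that of the rest; and up to 3 per list. Rule genes, mitochondrial, ribosomal, sex-linked and unnamed genes and markers of other cell types were left out of the first 3. Of the 24 genes named between subgroups, 1 is not reported here. Other names and list members were chosen after their values were seen, as were 3 alternatives: cells with lymphoid chemokine UMIs, cells with RNA of another class, and each gene's top cell left out. The other alternatives were different filters, limits, scalings, thinning, a mean over cells and doublets left out.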

Additional observations from a re-analysis of the deposited data

Results flagged for a closer look

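For 5 genes the ratio CDS over saline lay past 1.5-fold in opposite directions in Pdgfra-only and Rgs5-only cells. With 1 library a group the difference between the subgroups was not tested. Timp1, the metalloproteinase inhibitor, was at 0.160 in Pdgfra-only cells and at 38.8 in Rgs5-only cells, where 1 CDS cell held 99.3% of the 142 UMIs. Il11 was at 0.318 in Pdgfra-only and 5.97 in Rgs5-only cells, where its 51 CDS UMIs came from 5 cells. Tnc was at 0.161 in Pdgfra-only and 3.05 in Rgs5-only cells, with 71.2% of its 52 CDS UMIs in 1 cell. Ccl21a was at 0.231 in Pdgfra-only and 7.92 in Rgs5-only cells, where all 29 CDS UMIs came from 1 cell. Pdgfa, a ligand of the receptor Pdgfra, was at 0.239 in Pdgfra-only cells, from 4 and 63 UMIs, and at 1.69 in Rgs5-only cells, from 62 UMIs in 17 CDS cells and 30 UMIs in 19 saline cells. Of the 5, Pdgfa is the gene whose Rgs5-only UMIs were spread over most cells of both libraries.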

How the results depend on the processing

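No paired analysis was possible because each group has 1 library. With 15 rule UMIs as the minimum, stromal shares were 0.343% in CDS and 0.682% in saline, Pdgfra was in 67.1% of saline cells, Rgs5-only cells had 177 genes higher and 153 lower, and 7 oxidative phosphorylation genes were higher. Thinning gave 0.234% in CDS, and in saline 1.13% for the same barcodes unthinned and 40.3% Pdgfra-positive. The saline share was 1.21% with lymphoid barcodes out of the denominator. With 2 UMIs needed for a positive call, 37.9% of saline cells were Pdgfra-positive and 68 genes were higher in Pdgfra-only than Rgs5-only cells. With 100 UMIs as the minimum, genes higher and lower were 404 and 519 in stromal, 235 and 244 in Pdgfra-only, 154 and 50 in Rgs5-only cells and 18 and 20 between these subgroups, and 5 pericyte genes were higher; with no minimum, 497 were lower in Rgs5-only cells. Without cells rich in another class, 173 were lower in Rgs5-only cells, and these held 145 of the 296 lower with all cells. Without the chemokine-bearing cells the saline share was 0.414%, with 25% Pdgfra-positive, 500 genes were higher and 681 lower in stromal and 458 lower in Pdgfra-only cells, and 8 interferon, 5 chemokine and 0 complement genes were lower. Of the 1144 lower genes, 434 were lower without those cells too, and 381 of the 780 higher ones. Ratios turned for Ly6a (1.28), Mylk (1.55), Serpina3n (1.17), Socs3 (3.03), Abcc9 (1.23), Ednra (0.923) and Thbs1 (0.761) without those cells, for Clu (0.141) without cells rich in another class, for Lamb1 (1.14) as a mean over cells and for Igfbp3 (0.840) without the top cell. The causes were not tested. Left out of the following tally were the 3 alternatives added after seeing the data and the unthinned shares of the thinned barcodes. In the rest, 149 counts and shares and 304 gene ratios stayed within 1.5-fold or their interval. Past it moved 21 counts and shares and 27 gene ratios, and 1 gene ratio reversed. With 39 and 103 cells, genes under about 20 UMIs cannot be compared, and a single cell can carry a ratio.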
